A study of Mus musculus with 200 samples.

Results

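The 133 genes described here encode subunits of potassium, sodium and calcium channels, out of 38406 genes in a table of counts from 200 single medullary thymic epithelial cells of the mouse. They were chosen by symbol alone, as every row named Kcn, Scn or Cacn with the letters and number of a channel subunit. The rule takes voltage-gated pores together with inward rectifiers, 2-pore channels, channels opened by calcium or sodium, and accessory subunits, so not every member senses voltage. No measured value entered the choice.

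Voltage-gated channels open or close as the voltage across the membrane changes, and let sodium, calcium or potassium ions pass. Sodium channels start the action potential of nerve and muscle, calcium channels couple it to secretion and contraction, and potassium channels end it or hold the membrane at rest. Pore subunits form the path of the ion, and accessory subunits set the gating and the amount of pore at the surface. Medullary thymic epithelial cells are known for transcribing genes of other tissues, through the regulator Aire among others, and show the products to developing T cells. Channels of nerve, heart and muscle are a clear example of such genes, while some potassium channels belong to epithelia in general.

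All cells came from the thymus of female B6xNOD mice aged 5 weeks, and every mouse carried an AireGFP transgene that marks Aire expression. Cells were sorted as CD45-, Ly51-, MHCII+ and GFP+, and fell into 4 groups: 48 KO GFPhi cells, 61 WT GFPhi cells, 52 KO GFPlo cells and 39 WT GFPlo cells, where KO and WT give the Aire genotype and hi and lo the GFP gate. They were sorted on 2 dates into 12 library pools, with 9, 23, 22 and 18 cells of these groups on the first date. No label tells the mice apart. Each group therefore counted as a single sample without any test, and differences by genotype or gate cannot be told apart from differences between mice. Group sums were 3011900 counts in KO GFPhi, 3468109 in WT GFPhi, 1847240 in KO GFPlo and 2260672 in WT GFPlo cells, and totals per cell ran from 2429 to 370365.

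A level is the count of a gene summed over the cells of a group, per 1000000 counts of the group (CPM). Its 95% interval, exact Poisson for a level and Clopper-Pearson for a ratio, covers counting error only, not differences between cells or animals. Each comparison is given with its value on each sort date. Aire itself was at 815 CPM in KO GFPhi and 537 in WT GFPhi cells, and at 316 in KO GFPlo and 244 in WT GFPlo cells. Which stretch of the gene the knockout removes is not given, so these counts do not check the genotype.

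Not every sorted cell carried an epithelial profile. In 31 cells the counts of 20 leukocyte genes exceeded those of 10 epithelial genes: 0 of 48 KO GFPhi, 10 of 61 WT GFPhi, 16 of 52 KO GFPlo and 5 of 39 WT GFPlo cells. These cells, called leukocyte-marked below, held 0%, 33.4%, 40.1% and 22.8% of the counts of those groups. The 20 genes were narrowed from a full leukocyte list after the values were seen. That full list marked 11 KO GFPhi, 25 WT GFPhi, 22 KO GFPlo and 12 WT GFPlo cells. The defining medullary markers had counts in every group (12 of 13 genes in KO GFPhi and 13 of 13 in the others). The 20 leukocyte genes summed to 324 CPM in KO GFPhi and 6005 in WT GFPhi cells, and to 1902 in KO GFPlo and 4929 in WT GFPlo cells, mostly Igj in both WT groups. Values without the marked cells are given beside results that they move.

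Most channel genes were detected, but in few cells each. Of the 133 genes, 118 had at least 1 count, or 88.7%, against 56.1% of all genes in the table. The other 15 were at 0 in all cells, which allows a level of up to 0.283 CPM at a floor of 3 counts. A detected channel gene had counts in a median of 12 cells, against 22 cells for a detected gene of the whole table. Counts in 50 or more cells were found for 24 channel genes, 8 of them in 100 or more, and counts in 10 to 49 cells for 45. At the other end, 49 genes had counts in 1 to 9 cells, 10 of them in 1 cell. Calcium channel beta subunits had the widest detection of the 11 subunit families, with a median of 69 cells over 4 genes, and 2-pore potassium channels the narrowest, with a median of 3 cells over 14 genes.

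The gene detected most widely was Kcnq1, which forms the slow delayed rectifier of the heart and pairs with small Kcne subunits in epithelia. It had 3639 counts in 192 of 200 cells. The next were 3 genes of calcium or calcium-activated channels. Cacna2d3, an alpha-2-delta accessory subunit, had counts in 138 cells, Cacnb4, a beta accessory subunit known from the brain, in 131, and Kcnma1, the pore of the large-conductance calcium-activated potassium channel, in 129. Scn8a, the sodium channel of axon initial segments and nodes of Ranvier, had counts in 117 cells. Potassium channels of resting conductance came after these: Kcnk3 and Kcnj15 had counts in 116 cells each and Kcnk6 in 103. Cacna1b, the N-type calcium channel of nerve terminals, was counted in 95 cells, Cacnb3, another beta subunit, in 92, Scn3a, a sodium channel of the developing brain, in 87, and Kcnip4, a calcium-binding partner of A-type potassium channels, in 84.

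The promoters of 4 of these genes are shown because they differ widely in CG dinucleotides, although each of the genes was counted in 92 or more of the 200 cells. Each sequence runs from 250 bases before to 50 bases after the RefSeq start nearest the outer end of the gene on build GRCm38.p6, 5′ to 3′ on the strand of the gene, with CG in capitals. Cacna2d3 lies at chr14:29721815-29722114 on the minus strand, with 41 CG, and Kcnma1 at chr14:24004156-24004455 on the minus strand, with 36 CG. Cacnb3 lies at chr15:98632078-98632377 on the plus strand, with 7 CG, and Kcnj15 at chr16:95257308-95257607 on the plus strand, with 2 CG.
Cacna2d3 promoter: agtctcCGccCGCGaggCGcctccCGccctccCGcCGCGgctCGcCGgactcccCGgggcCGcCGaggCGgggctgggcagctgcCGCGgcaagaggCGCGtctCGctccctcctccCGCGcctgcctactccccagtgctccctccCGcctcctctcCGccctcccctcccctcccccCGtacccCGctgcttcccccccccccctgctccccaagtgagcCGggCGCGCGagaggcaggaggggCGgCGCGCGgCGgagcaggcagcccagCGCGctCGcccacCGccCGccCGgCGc
Kcnma1 promoter: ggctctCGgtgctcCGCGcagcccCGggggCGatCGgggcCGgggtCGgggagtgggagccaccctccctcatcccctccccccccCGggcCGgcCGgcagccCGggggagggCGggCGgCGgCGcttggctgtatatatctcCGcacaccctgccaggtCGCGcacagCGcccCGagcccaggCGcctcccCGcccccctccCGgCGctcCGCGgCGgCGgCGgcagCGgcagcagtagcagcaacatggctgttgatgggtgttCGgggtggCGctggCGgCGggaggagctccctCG
Cacnb3 promoter: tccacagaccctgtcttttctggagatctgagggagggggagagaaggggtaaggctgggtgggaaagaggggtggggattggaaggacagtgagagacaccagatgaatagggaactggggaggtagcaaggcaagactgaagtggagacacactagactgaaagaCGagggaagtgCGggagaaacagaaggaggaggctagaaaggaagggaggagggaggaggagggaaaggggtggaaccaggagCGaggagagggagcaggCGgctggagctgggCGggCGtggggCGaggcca
Kcnj15 promoter: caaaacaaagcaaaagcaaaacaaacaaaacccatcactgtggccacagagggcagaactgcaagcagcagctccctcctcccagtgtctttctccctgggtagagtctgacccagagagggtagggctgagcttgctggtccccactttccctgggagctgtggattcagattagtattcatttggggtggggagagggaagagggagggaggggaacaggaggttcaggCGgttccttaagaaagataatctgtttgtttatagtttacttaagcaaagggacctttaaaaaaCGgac
A promoter was found for 97 of the 133 genes. These held a median of 10 CG, against 13 for 17032 promoters of all genes. Across all genes, promoters with more CG belonged to genes counted in more cells (Spearman rho 0.56). Across the 97 channel genes rho was 0.14, and both are descriptions across genes, which are not independent. The motif TATAAA, searched on both strands of the same 300 bases, was found in 4 channel promoters (4.12%), among them those of Kcnj15 and Cacna1d, against 12.8% of all promoters.

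Detection followed the span of the gene, and did so in the whole table to the same degree. Spearman rho between span from start to end and cells with a count was 0.69 across the 133 channel genes and 0.70 across 34467 genes placed in the annotation. The 43 channel genes of 100 kb or more had counts in 7 to 192 cells with a median of 39, and none was at 0. The 90 shorter genes had a median of 7 cells, and all 15 genes at 0 were among them. Kcnk6, of 10.6 kb, Cacnb3, of 13.7 kb, Kcnk3, of 37.1 kb, and Kcnj15, of 42.7 kb, were counted in far more cells than most genes of their span. Levels of different genes are not compared here, since counts were not scaled to transcript length.

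**Figure D1:**
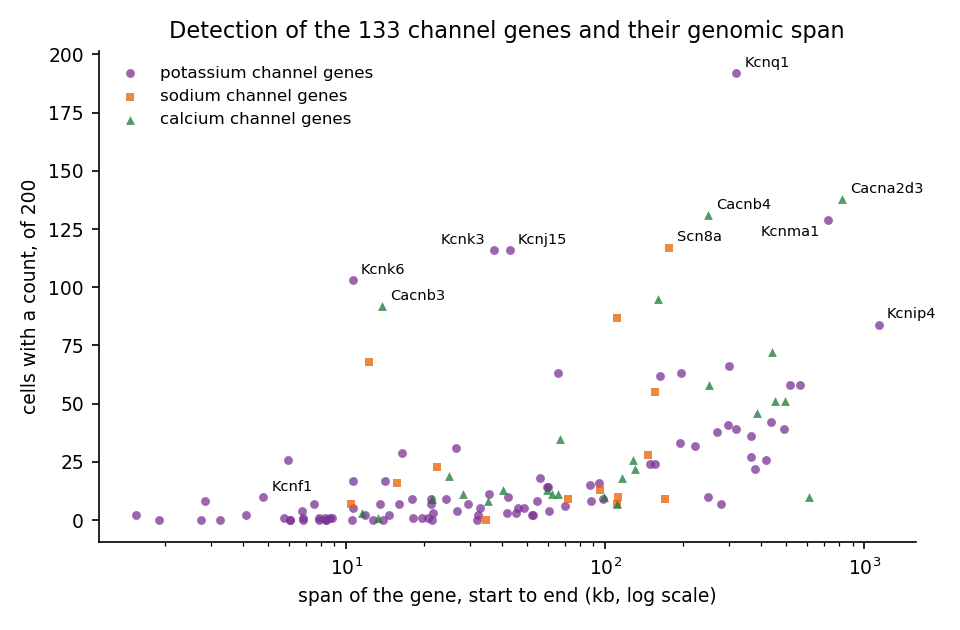
Cells with a count, of 200, against the span of the gene in kb on a log scale, 1 point for each of the 133 potassium, sodium or calcium channel genes. Genes under 100 kb lie mostly near 0, with a median of 7 cells, while Kcnk6, Cacnb3, Kcnk3 and Kcnj15 stand above them, and Kcnq1 was counted in 192 cells.

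Many channel genes were carried by 1 cell. Of 76 channel genes with at least 20 counts, 12 (15.8%) had over 50% of their counts in 1 cell, against 10.4% of all genes with as many counts and 19.5% of 82 genes of other ion channels, such as transmitter-gated and TRP channels. Kcnf1, a silent potassium subunit that works only with other pores, had 274 of its 316 counts in 1 WT GFPhi cell. Kcnh1, a channel best known from brain, had 156 of 231 counts in 1 KO GFPhi cell. Kcnj14, an inward rectifier, had all 24 counts in 1 cell. These genes were singled out after their values were seen, and their group levels describe 1 cell each.

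At equal depth a single cell had counts for few of the channel genes. Each cell with enough counts was thinned to 13300 counts, which left out 40 cells and kept 40 KO GFPhi, 48 WT GFPhi, 43 KO GFPlo and 29 WT GFPlo cells. Thinned KO GFPhi cells had counts for 3 to 22 channel genes (median 9.5) and WT GFPhi cells for 4 to 18 (median 11). KO GFPlo cells had counts for 4 to 16 (median 9) and WT GFPlo cells for 4 to 14 (median 9). The ranges overlapped almost wholly. Mean numbers were 9.80 ± 3.74 in KO GFPhi and 11.1 ± 3.55 in WT GFPhi cells, and 8.86 ± 2.88 in KO GFPlo and 8.86 ± 2.70 in WT GFPlo cells (SD over cells). All genes detected in the same thinned cells had medians of 3079.5 in KO GFPhi, 3109.5 in WT GFPhi, 2733 in KO GFPlo and 3067 in WT GFPlo cells.

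By sort date the pattern was uneven. In the first sort KO GFPhi cells averaged 11.4 channel genes and WT GFPhi cells 11.4, and in the second 9.45 and 10.9. KO GFPlo cells averaged 10.6 and WT GFPlo cells 9 in the first sort, against 7.46 and 8.75 in the second, so the order of the GFPlo groups turned round between dates. Before thinning, every one of the 200 cells had a count of at least 1 channel gene and the most was 42. Medians before thinning were 16 in KO GFPhi, 17 in WT GFPhi, 13 in KO GFPlo and 15 in WT GFPlo cells. Over all cells of a group, 97, 102, 92 and 84 different channel genes were counted, although no thinned cell held more than 22.

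**Figure D2:**
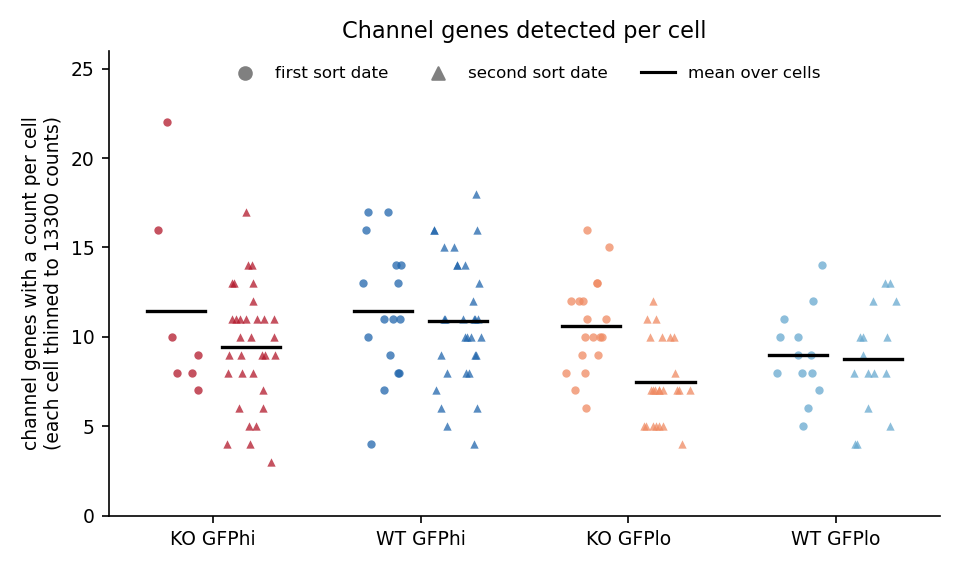
Channel genes with a count in each cell after thinning to 13300 counts, by group and sort date, with 1 point per cell and a line at the mean over cells. All groups overlap between 4 and 14 genes per cell, and the KO GFPlo cells of the second sort have the lowest mean, 7.46.

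The first comparison asked which channel genes differ with the loss of Aire in cells with most GFP. Summed over all 133 genes, the level was 1756 CPM (1709 to 1804) in KO GFPhi and 2464 CPM (2412 to 2517) in WT GFPhi cells, a ratio of 0.713 (0.689 to 0.738). The ratio was 0.502 in the first sort and 0.874 in the second, both below 1. Without Kcnq1, which gave 8.83% of the channel counts in KO GFPhi and 15.97% in WT GFPhi cells, it was 0.773. Of 76 genes reaching 10 counts in the pair, 8 were at least 4-fold higher in KO GFPhi cells and 21 at least 4-fold lower. Those are 10.53% and 27.6%, beside 9.23% and 17.8% of all 15033 genes with as many counts. The median log2 ratio was -0.79, against -0.13 for all genes.

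The direction of single genes often differed between sorts. Of 42 channel genes with at least 10 counts in each sort, 24 (57.1%) had the same direction in both, against 55.1% of all such genes. In the other 3 comparisons these shares were 60%, 53.7% and 48.6%, against 53.4%, 52.96% and 57.2% of all genes. A shared direction was thus little more or less common among channel genes than in the whole table, and most single genes below are given with both dates.

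Kcnq1 (chr7:143106362-143427042, plus strand, mm10) was lower in KO GFPhi cells. Its level was 155 CPM (141 to 170) there and 394 CPM (373 to 415) in WT GFPhi cells, with counts in 46 of 48 and 60 of 61 cells. On the 2 dates it was 88.0 and 182 in KO GFPhi, against 393 and 394 in WT GFPhi cells. The 10 leukocyte-marked WT GFPhi cells held 48.4% of the WT counts, and without them the WT level was 305 CPM and the ratio 0.508. The gene shares 121 exon bases with the antisense Kcnq1ot1, which was not analysed here, and the sources do not say whether counting used the strand.

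Summed levels of accessory calcium channel subunits differed in both directions in this pair, not all of them on both dates. Cacna2d3 was at 85.0 CPM in KO GFPhi and 316 CPM in WT GFPhi cells, a fold of 3.72 lower (3.25 to 4.28), with 19.9 and 111 CPM in KO GFPhi and 432 and 258 in WT GFPhi cells by date. Its median over cells was 53.2 CPM in KO GFPhi and 35.4 in WT GFPhi cells, while the highest single cell had 5861 and 27756 CPM. The summed level and the median cell thus pointed opposite ways. Without marked cells the WT GFPhi level was 453 CPM and the ratio 0.188, against 0.269 with them.
Cacna2d1, the form of muscle and brain that binds gabapentin, was at 104 CPM in KO GFPhi and 22.8 CPM in WT GFPhi cells, 4.58 times as high (3.57 to 5.93). It was higher on both dates, with 123 and 96.8 against 26.6 and 20.9 CPM, and after thinning 42.5% of KO GFPhi and 14.6% of WT GFPhi cells had a count. Without marked cells the ratio was 3.82. Cacna2d2, known from cerebellum, was at 1.33 CPM in KO GFPhi and 19.9 in WT GFPhi cells, and its counts in WT came from the second date alone. Its ratio was 0.067 with and 0.044 without marked cells.
Cacnb4 was at 79.7 CPM in KO GFPhi and 31.1 in WT GFPhi cells, with the order reversed in the first sort, 26.99 against 37.7. Of its KO GFPhi counts, 37.1% were in 1 cell.

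Cacna1d, Scn9a and Scn3b were higher in KO GFPhi cells, and only Scn9a of these is in the brain and nerve list below. Cacna1d, an L-type pore of pacemaker, hair and endocrine cells, was at 49.1 CPM (41.5 to 57.7) in KO GFPhi and 4.33 CPM (2.42 to 7.13) in WT GFPhi cells. By date it was 45.8 and 50.5 in KO GFPhi, against 4.29 and 4.34 in WT GFPhi cells, 11.4 times as high over both (6.67 to 20.8), although 1 cell held 46.6% of the KO counts. The gene shares 589 exon bases with Chdh on the opposite strand.
Scn9a, a sodium channel of pain-sensing neurons, was at 82.3 CPM in KO GFPhi and 18.5 in WT GFPhi cells, with 217 and 29.2 CPM by date in KO GFPhi, against 13.7 and 20.9 in WT GFPhi cells. Its ratio was 4.46 with all cells and 3.22 without marked cells. However, 1 KO GFPhi cell of the first sort held 111 of its counts. After thinning, 22.5% of KO GFPhi and 25% of WT GFPhi cells had a count of Scn9a. Scn3b, a sodium channel beta subunit, had 34 counts in 9 KO GFPhi cells and 1 count in 1 WT GFPhi cell, nearly all in the second sort. Of 31 channel genes of brain and nerve, 21 had at least 10 counts, of which 2 (9.52%) were at least 4-fold higher and 4 (19.05%) at least 4-fold lower, close to 9.23% and 17.8% of all genes, and the median log2 ratio was 0.07. Their sum was 636 CPM in KO GFPhi and 535 CPM in WT GFPhi cells, a ratio of 1.19 with 0.915 and 1.44 by date. Neuron markers summed to 1235 CPM in KO GFPhi and 978 CPM in WT GFPhi cells, with 11 of 12 counted in each, and their part in these values was not tested.

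Several potassium channel genes of epithelia were lower in KO GFPhi cells. Kcnj15, an inward rectifier of kidney and pancreas, was at 59.8 CPM (51.4 to 69.2) in KO GFPhi and 192 CPM (178 to 207) in WT GFPhi cells. By date it was 71.6 and 55.1 in KO GFPhi, against 210 and 183 in WT GFPhi cells, and a count was found in 37.5% of KO GFPhi and 66.7% of WT GFPhi cells after thinning. The ratio was 0.346 without marked cells, close to 0.311 with them. Kcnmb2, a beta subunit of the large-conductance channel, was at 1.99 CPM in KO GFPhi and 24.8 in WT GFPhi cells, lower on both dates (3.52 and 1.39 against 59.1 and 7.39).
Kcnab1, a beta subunit of Shaker-type channels, is not in the epithelial list below. It was at 3.98 CPM in KO GFPhi and 32.9 in WT GFPhi cells, with nearly all of the difference in the second sort. Kcnma1 differed little, with 129 CPM in KO GFPhi and 146 in WT GFPhi cells, and Kcnk6 was at 90.3 and 69.8. Of 14 channel genes of transporting and secretory epithelia, 9 had at least 10 counts, of which 4 (44.4%) were at least 4-fold lower and 0 higher, beside 17.8% and 9.23% of all genes, and the median log2 ratio was -1.68. Kcnn4, also a lymphocyte channel, was 1 of these 4, and marked cells held 89.2% of its WT GFPhi counts. The summed level of the 14 genes was 438 CPM in KO GFPhi and 889 CPM in WT GFPhi cells, a ratio of 0.493, or 0.572 without Kcnq1. Marked cells held 0% of the counts of the list in KO GFPhi and 41.3% in WT GFPhi cells.

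Of 16 channel genes of heart and striated muscle, 8 had at least 10 counts in this pair, and 2 (25%) were at least 4-fold lower and 0 higher, beside 17.8% and 9.23% of all genes. The sum was 204 CPM in KO GFPhi and 464 CPM in WT GFPhi cells, and without Kcnq1 the ratio of 0.440 became 0.701. Marked cells held 0% of these counts in KO GFPhi and 47.8% in WT GFPhi cells. Kcnu1, the pH-sensitive potassium channel of sperm, had 3 counts in 1 KO GFPhi cell and 5 counts in 5 WT GFPhi cells, too few for a comparison. Muscle markers summed to 298 CPM in KO GFPhi and 239 in WT GFPhi cells, with 8 and 13 of 14 genes counted.

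**Figure D3:**
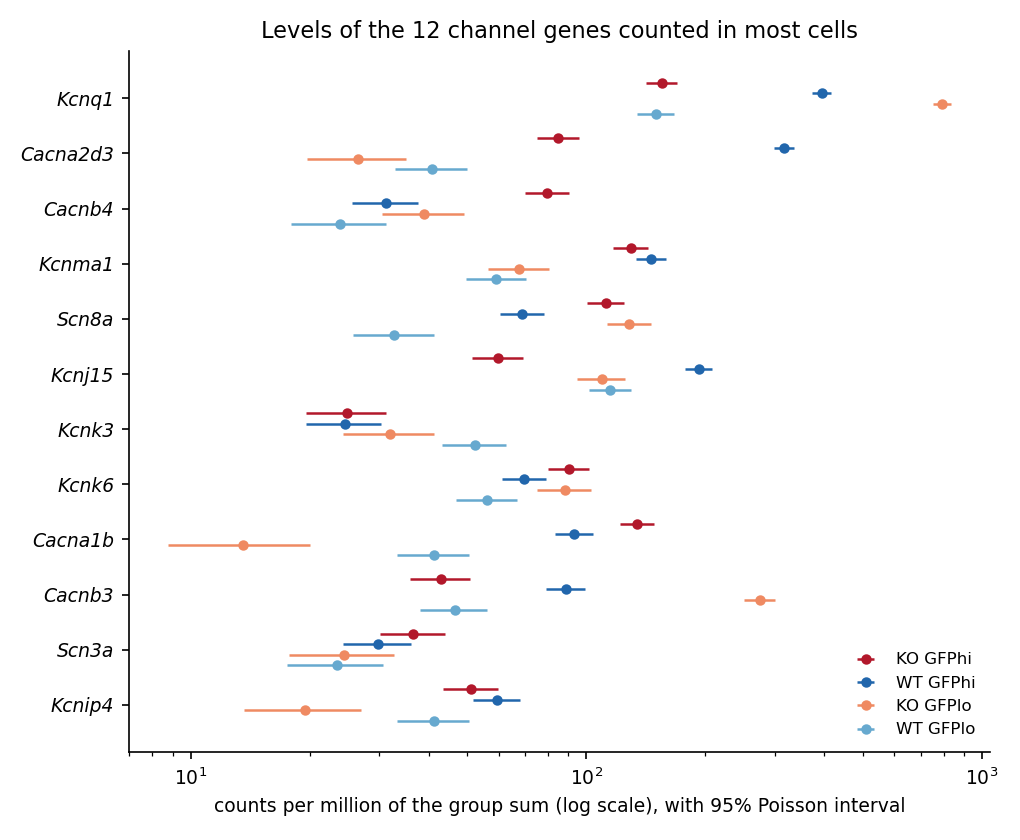
Levels of the 12 channel genes counted in most cells, in CPM on a log axis, with a point for each of the 4 groups and its 95% Poisson interval. Kcnq1 runs from 149.96 CPM in WT GFPlo to 795 CPM in KO GFPlo cells, Cacna2d3 is highest in WT GFPhi cells, at 316 CPM, and Cacna1b is lowest in KO GFPlo cells, at 13.5 CPM.

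In cells with less GFP the channel sum had the opposite order. It was 2504 CPM (2432 to 2577) in KO GFPlo and 1463 CPM (1414 to 1514) in WT GFPlo cells, a ratio of 1.71 (1.64 to 1.7897), with 1.601 and 1.81 by date. Kcnq1 alone gave 31.7% of the channel counts of KO GFPlo and 10.2% of those of WT GFPlo cells, and without it the ratio was 1.30 (1.24 to 1.37). Of 67 genes with at least 10 counts, 13 (19.4%) were at least 4-fold higher in KO GFPlo cells and 9 (13.4%) at least 4-fold lower, beside 12.6% and 15.3% of all genes. The median log2 ratio was 0.06, against -0.05 for all genes, so the higher sum was not shared by most members.

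A few genes carried the difference, and leukocyte-marked cells held many of their counts. Kcnq1 was at 795 CPM (755 to 836) in KO GFPlo and 149.96 CPM (134 to 167) in WT GFPlo cells. By date it was 243 and 1114 in KO GFPlo, against 155 and 145 in WT GFPlo cells. The 16 marked KO GFPlo cells held 65.8% of its counts. The highest single cell, at 20508 CPM and from the second sort, was not marked and stays in the values without marked cells. That cell had 293 channel counts in all. Without marked cells the levels were 453 CPM in KO GFPlo and 158 in WT GFPlo cells, and the ratio was 2.87, against 5.30 with them.
Cacnb3 was at 274 CPM (251 to 299) in KO GFPlo and 46.4 CPM (37.99 to 56.2) in WT GFPlo cells, and marked cells held 76.7% of the KO counts. Without them the levels were 107 and 47.6 CPM, a ratio of 2.24 instead of 5.91. Both genes were still higher in KO GFPlo cells, by less than 4-fold. For Kcnq1 this includes the unmarked cell at 20508 CPM, and the ratio without that cell was not computed.

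Scn8a was higher in KO GFPlo cells through the first sort. It was at 128 CPM in KO GFPlo and 32.7 CPM in WT GFPlo cells, with 277 and 41.9 by date in KO GFPlo, against 30.3 and 34.97 in WT GFPlo cells. Marked cells held 11.8% of its KO counts, and the ratio was 5.15 without them. Scn9a was at 31.9 CPM in KO GFPlo and 13.7 in WT GFPlo cells, and Cacna2d1 at 41.1 and 22.6, both higher in KO GFPlo cells on each date. Summed levels of Cacna2d1 and Scn9a were thus higher in KO cells of either gate and in either sort. This describes 2 genes picked out after their values were seen. For Scn9a the thinned share of cells with a count was not higher in KO GFPhi cells, at 22.5% against 25% in WT GFPhi cells.

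Several calcium channel genes had lower summed levels in KO GFPlo cells when all cells were counted. Cacna1d was at 5.95 CPM in KO GFPlo and 53.97 CPM in WT GFPlo cells, but 86.9% of the WT counts were in 4 of the 5 marked cells. Without marked cells the levels were 2.71 CPM in KO GFPlo and 9.17 in WT GFPlo cells, a ratio of 0.296 (0.0552 to 1.03). This interval includes 1. Cacna1b was at 13.5 CPM (8.76 to 19.98) in KO GFPlo and 41.1 CPM (33.2 to 50.4) in WT GFPlo cells, lower on both dates (26.5 and 5.99 against 70.8 and 13.6).
Cacna1a, the P/Q-type pore of Purkinje cells, was at 23.8 CPM in KO GFPlo and 43.8 in WT GFPlo cells, with the order turned round in the second sort. Cacna1e, the R-type pore, was at 8.66 and 19.9, and Cacna2d4, an alpha-2-delta form of the retina, at 2.17 and 9.73. Without marked cells the ratio was 0.581 (0.291 to 1.097) for Cacna1e, an interval that includes 1. For Cacna2d4 it was 0.287 (0.0718 to 0.844), and its 2.17 CPM lies near the KO GFPlo floor of 1.62 CPM. The 10 calcium pore genes together were at 120.2 CPM in KO GFPlo and 197 CPM in WT GFPlo cells, a ratio of 0.609 that was 1.27 in the first sort and 0.160 in the second. Without marked cells it was 1.14 (0.948 to 1.37), so the lower sum rested on marked cells and on the second sort.

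By tissue, 23 of 31 channel genes of brain and nerve had at least 10 counts in the GFPlo pair, 2 (8.70%) were at least 4-fold higher and 4 (17.4%) lower, beside 12.6% and 15.3% of all genes, and the sum was 526 CPM in KO GFPlo and 456 CPM in WT GFPlo cells. Neuron markers summed to 1116 CPM in KO GFPlo and 1381 in WT GFPlo cells. The 16 heart and muscle genes summed to 890.0 CPM in KO GFPlo and 232 CPM in WT GFPlo cells, a ratio of 3.83 that was 1.16 without Kcnq1. The 14 epithelial genes summed to 1094 CPM in KO GFPlo and 440.1 CPM in WT GFPlo cells, a ratio of 2.48 that was 1.03 without Kcnq1. In both lists 1 gene thus made nearly all of the difference, and marked cells held 60.9% and 54.1% of the counts of these lists in KO GFPlo cells, against 21.3% and 22.6% in WT GFPlo cells.

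**Figure D4:**
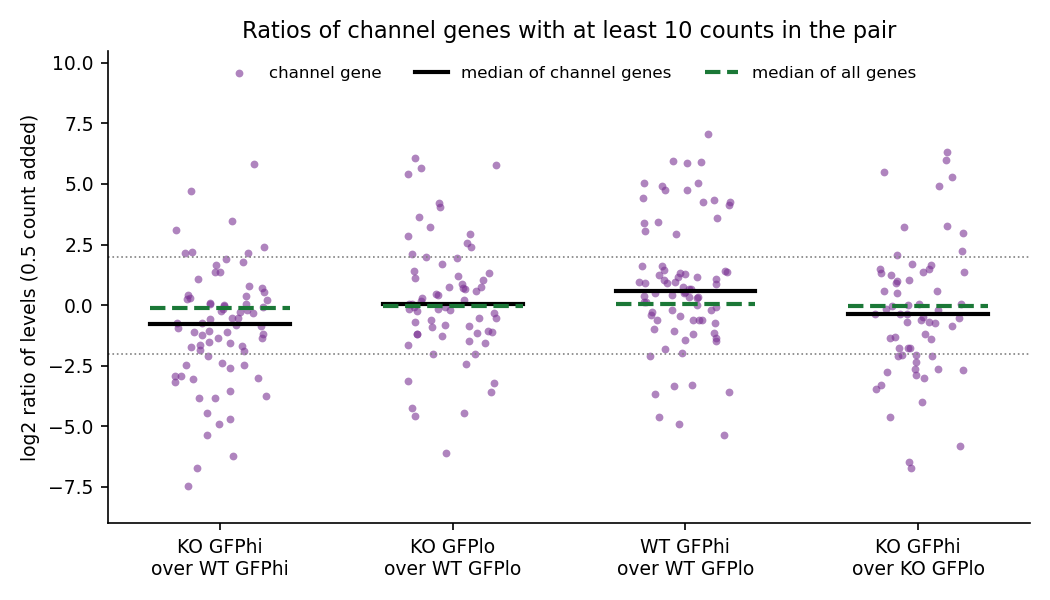
Log2 ratios of the channel genes with at least 10 counts in each pair of groups, 1 point per gene, with the median of channel genes (black) and of all genes (green, dashed) and dotted lines at 4-fold. The channel median lies below that of all genes for KO GFPhi over WT GFPhi (-0.79 against -0.13) and above it for WT GFPhi over WT GFPlo (0.59 against 0.05).

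Sodium channel pores, which start action potentials, were, with all cells counted, the only one of the 11 subunit families with a higher sum in KO cells of both gates on both dates, a pattern picked out after the values were seen. The 10 genes summed to 251 CPM (234 to 270) in KO GFPhi and 158 CPM (145 to 172) in WT GFPhi cells, a ratio of 1.59 with 2.42 and 1.29 by date. They summed to 245 CPM in KO GFPlo and 81.8 CPM in WT GFPlo cells, a ratio of 2.99 with 4.66 and 2.07 by date. Without Scn8a, the member with most counts, the ratios were 1.57 and 2.37, and without marked cells 1.197 and 3.89. Ratios without Scn9a were not computed, so the part of that gene in the GFPhi ratio is not known. With marked cells left out, Scn9a was at 82.3 CPM in KO GFPhi and 25.6 in WT GFPhi cells, and 1 KO GFPhi cell held 111 of its counts. Without marked cells the sums of calcium pores (1.17 and 1.14) and of calcium channel gamma subunits (1.22 and 1.27) were above 1 in both gates as well, with intervals that reached below 1 except for calcium pores in the GFPhi pair. The members did not move as one. In the GFPhi pair Scn9a was at least 4-fold higher with all cells but not without marked cells, and Scn2a1 was at least 4-fold lower, with 16 counts in KO GFPhi and 106 in WT GFPhi cells, while in the GFPlo pair Scn2a1 was higher, with 99 counts in KO GFPlo and 6 in WT GFPlo cells, and Scn11a lower.
Scn3a was at 36.5 CPM in KO GFPhi, 29.7 in WT GFPhi, 24.4 in KO GFPlo and 23.4 in WT GFPlo cells. Marked cells held 68.9% of its KO GFPlo counts, and without them the levels were 12.6 CPM in KO GFPlo and 26.4 in WT GFPlo cells, a ratio of 0.480 (0.244 to 0.888). Inward rectifiers had a sum of 108 CPM in KO GFPhi and 303 CPM in WT GFPhi cells, a ratio of 0.356, and of 176 CPM in KO GFPlo and 240.2 CPM in WT GFPlo cells, a ratio of 0.732 that was 1.11 in the first sort and 1.21 (1.05 to 1.41) without marked cells. The order was thus the same with and without these cells in the GFPhi pair, where the ratio without them was 0.387, and turned round in the GFPlo pair.

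Of the other genes that led a family or were counted in most cells, Kcnk3, an acid-sensitive leak channel, was at 24.9 CPM in KO GFPhi and 24.5 in WT GFPhi cells, and at 31.9 in KO GFPlo and 52.2 in WT GFPlo cells. It was higher in the first sort than in the second in every group, as in KO GFPhi cells with 51.6 and 14.4 CPM. Kcnip4 was at 51.1 CPM in KO GFPhi, 59.4 in WT GFPhi, 19.5 in KO GFPlo and 41.1 in WT GFPlo cells, with 66.2% of the KO GFPhi and 71.0% of the WT GFPlo counts in 1 cell.
Scn2b, a sodium channel beta subunit, was at 7.64 CPM in KO GFPhi and 14.99 in WT GFPhi cells, and at 7.58 in KO GFPlo and 17.3 in WT GFPlo cells. Its order by genotype was the same in both gates but not on both dates, since KO GFPhi cells of the first sort were at 10.6 against 8.57 CPM in WT GFPhi. Cacng8, a partner of glutamate receptors of the AMPA type, had 52.9% of its KO GFPhi counts, 95% of its KO GFPlo counts and 89.4% of its WT GFPhi counts in 1 cell each, and 0 counts in WT GFPlo cells.

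The remaining pairs compared the GFP gates within a genotype, and share their groups with the pairs above, so they are no further evidence on the same genes. In WT cells the channel sum was 2464 CPM in WT GFPhi and 1463 CPM in WT GFPlo cells, a ratio of 1.68 (1.62 to 1.75), with 2.11 and 1.48 by date and 1.58 without Kcnq1. Of 78 genes with at least 10 counts, 19 (24.4%) were at least 4-fold higher in WT GFPhi cells and 8 (10.3%) at least 4-fold lower, beside 16.5% and 12.3% of all genes. The median log2 ratio was 0.59, against 0.05 for all genes.

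Several accessory subunits were higher in WT GFPhi than in WT GFPlo cells. Kcnab1 had 114 counts in 19 WT GFPhi cells and 3 counts in 3 WT GFPlo cells. Cacna2d3 was at 316 CPM in WT GFPhi and 40.7 CPM in WT GFPlo cells, 7.77 times as high (6.28 to 9.72), on both dates (432 and 258 against 38.6 and 42.6). Its thinned shares of cells with a count were alike, 41.7% and 44.8%, so the difference lay in the amount in few cells. Cacna2d2 had 69 counts in 13 WT GFPhi cells and 1 count in 1 WT GFPlo cell, and the counts in WT GFPhi cells all came from the second sort.
In the other direction Kcnj2, the inward rectifier of heart and skeletal muscle, was at 0.577 CPM in WT GFPhi and 17.3 CPM in WT GFPlo cells, lower on both dates. Cacna1e was at 4.90 and 19.9 CPM, lower on both dates as well, and Scn3b and Scn4b, both sodium channel beta subunits, were at 0.288 and 12.8 CPM and at 5.77 and 24.8 CPM. Scn4b had no counts in the first sort in any group.

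In KO cells the order of the sum was reversed, with 1756 CPM in KO GFPhi and 2504 CPM in KO GFPlo cells, a ratio of 0.701 (0.674 to 0.730). It was 0.662 and 0.714 by date but 0.937 without Kcnq1. Of 65 genes with at least 10 counts, 10 (15.4%) were at least 4-fold higher in KO GFPhi cells and 18 (27.7%) at least 4-fold lower, beside 12.5% and 14.1% of all genes. The median log2 ratio was -0.36, against -0.03 for all genes, and it was 0.20 in the second sort alone. With TMM scaling the ratios of all genes in this pair moved by 0.12 on the log2 scale.

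Among the genes higher in KO GFPhi cells was a neuronal calcium pore. Cacna1b was at 134 CPM (122 to 148) in KO GFPhi and 13.5 CPM in KO GFPlo cells, 9.94 times as high (6.63 to 15.5), on both dates (188 and 113 against 26.5 and 5.99). Without marked cells, which held none of its KO counts, the level was 22.6 CPM in KO GFPlo cells and the ratio 5.95 (3.97 to 9.31). Thinned KO GFPhi cells held a count in 57.5% of cases, against 18.6% of thinned KO GFPlo cells.

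Lower in KO GFPhi than in KO GFPlo cells were Kcnq1 (155 against 795 CPM), Cacnb3 (42.8 against 274), Kcnd3, a channel of the transient outward current of the heart (1.33 against 23.3), Kcnj2 (1.33 against 16.2) and Kcnn4 (0 against 17.3). Without marked cells the ratio was 0.342 for Kcnq1, 0.402 for Cacnb3, 0.147 for Kcnd3 and 0.051 for Kcnj2, against 0.195, 0.156, 0.057 and 0.082 with them. The Kcnq1 ratio without marked cells includes the unmarked KO GFPlo cell at 20508 CPM. Of the Kcnd3 counts of KO GFPlo cells, 76.7% were in marked cells.

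Kcnn4, the intermediate-conductance calcium-activated potassium channel of lymphocytes and some epithelia, had most of its counts in a few leukocyte-marked cells. It had 0 counts in KO GFPhi cells, 102 counts in 13 WT GFPhi cells, 32 counts in 12 KO GFPlo cells and 112 counts in 4 WT GFPlo cells. Of these counts 89.2% in WT GFPhi, 75.0% in KO GFPlo and 98.2% in WT GFPlo cells came from marked cells. Only 5 of 10 marked WT GFPhi, 6 of 16 marked KO GFPlo and 2 of 5 marked WT GFPlo cells had a count. In 1 cell lay 54 of the 102 WT GFPhi counts, and in another 88 of the 112 WT GFPlo counts. The level of Kcnn4 without marked cells was 4.76 CPM in WT GFPhi, 7.23 in KO GFPlo and 1.15 in WT GFPlo cells. KO GFPhi cells had no count of the gene, which allows a level of up to 0.996 CPM there. No KO GFPhi cell was marked either, but this holds only for the leukocyte list narrowed after the values were seen. The full leukocyte list marked 11 of 48 KO GFPhi cells, and these had no count of Kcnn4. Whether leukocytes account for the differences in Kcnn4 between groups was not tested.

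**Figure D5:**
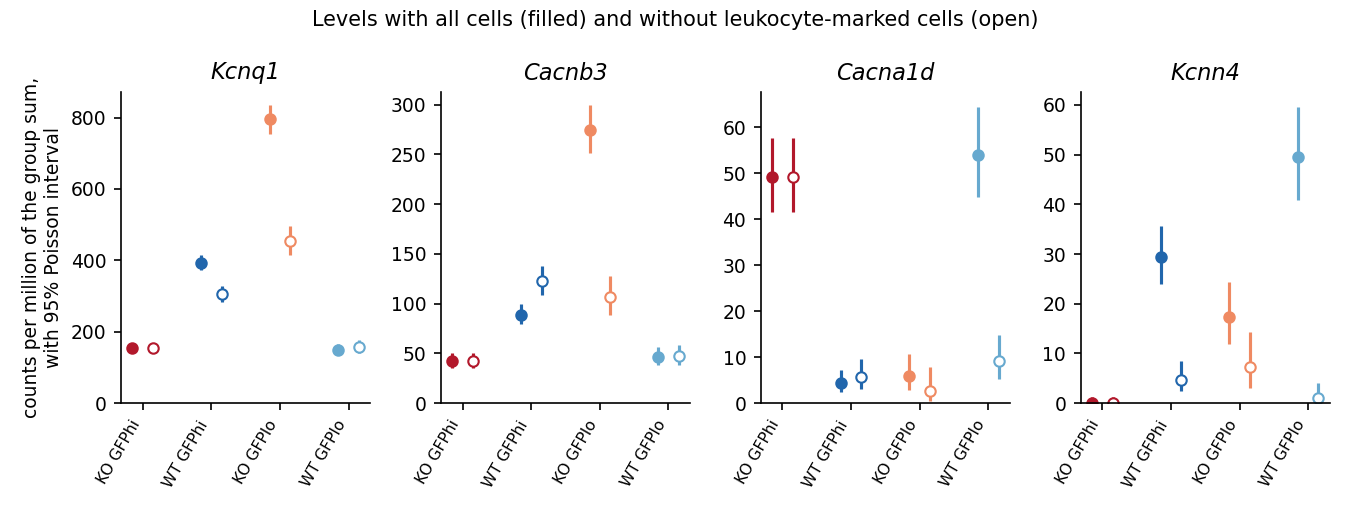
Levels of Kcnq1, Cacnb3, Cacna1d and Kcnn4 in CPM with 95% Poisson intervals, for all cells (filled) and without leukocyte-marked cells (open). Without these cells the KO GFPlo levels of Kcnq1 and Cacnb3 are 453 and 107 CPM, against 795 and 274 CPM with them, while the WT GFPlo levels of Cacna1d and Kcnn4 drop to 9.17 and 1.15 CPM.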

How the data were processed

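The authors deposited raw counts, as whole numbers for each gene in each cell. Per the labels' protocols, single cells were lysed in plates, and oligo-dT primed RNA was amplified by in vitro transcription. The submitters' processing notes list HTSeq, SAMtools 0.1.19, Picard 1.79, TopHat and TopHat2 with the build mm10. Whether molecular identifiers were collapsed, or strand was used in counting, is not given in the sources used here, so counts were taken as tags. All 200 cells were used without a doublet step. Every column belonged to a sample, and 0 cell pairs shared identical values.

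Counts were summed per group and divided by the group total. A gene was counted as past 4-fold if it reached 10 counts over the pair, after 0.5 count was added to each sum, and a sum of 0 allows 3 counts. Thinning drew 13300 counts per cell, the 20th percentile of totals rounded down, without replacement. The steps were tested on simulated data. Named genes are the 12 counted in most cells, the leading gene of each of 11 subunit families and 6 tissue lists, and in each comparison the 5 highest and 5 lowest. These were ranked by the interval bound closest to 1 among genes with 20 counts in the pair and counts in 3 cells of the group with the higher level, no cell holding over 50% of that group's counts, and per-cell means pointing the same way. Some of these are not reported here. Other genes are said to be singled out after their values were seen, as are Kcnh6, Kcnt2, Scn2a1 and Scn11a. The members, lists and rules were chosen with earlier results of these data known. The leukocyte list had 26 genes and marked 70 cells. Of these genes, 6 with counts in 100 or more cells were left out after the values were seen.

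Positions came from GENCODE M21 and promoters from RefSeq GRCm38.p6, the build of mm10. Of the 133 genes, 36 share exon bases with a gene on the opposite strand, whose reads may not be told apart. Alternatives were each sort date, each library pool left out, ls primers alone, leukocyte-marked cells left out, per-cell means, TMM factors, other minimums and depths. R 4.3.3 with edgeR 4.0.16 gave the TMM factors, and matplotlib 3.10.9, scipy 1.17.1, pandas 2.3.3 and numpy 2.4.6 ran under Python 3.11.15.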

Additional observations from a re-analysis of the deposited data

Results flagged for a closer look

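The order of KO and WT cells differed between the GFP gates for the summed channel level and for 4 genes described above, with 1 direction on both dates in GFPhi cells and the opposite on both dates in GFPlo cells. The difference between gates was not tested, since each group was 1 sample. Of 31 channel genes with at least 10 counts in each pair and date, 6 had this pattern, the others being Kcnh6 and Kcnt2. The share of all genes with this pattern was not counted, so 6 of 31 is not read as a trait of channel genes.

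For the sum, the log2 ratio of KO over WT was lower in GFPhi than in GFPlo cells by a difference of -1.26, with -0.99 and -0.19 by date in GFPhi, against 0.68 and 0.86 in GFPlo cells. For Kcnq1 the difference was -3.75, with -2.15 and -1.12 against 0.65 and 2.94. For Cacnb3 it was -3.61, with -4.34 and -0.46 against 0.62 and 2.58. For Cacna1b it was 2.11, with 0.29 and 0.86 against -1.38 and -1.13. For Cacna1d it was 6.59, with 3.30 and 3.47 against -1.08 and -3.59. Leukocyte-marked cells held 65.8% of the Kcnq1 and 76.7% of the Cacnb3 counts of KO GFPlo cells and 86.9% of the Cacna1d counts of WT GFPlo cells, and none of the counts of KO GFPhi cells.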

How the results depend on the processing

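The channel sums kept their direction under every alternative run, and 350 of 416 recomputed values stayed near the main one, that is within its 95% interval for a sum or median, within 1.5 times for a count and within 1 gene for genes per cell. Main log2 ratios of the sum were -0.49 for KO GFPhi over WT GFPhi, 0.77 for KO GFPlo over WT GFPlo, 0.75 for WT GFPhi over WT GFPlo and -0.51 for KO GFPhi over KO GFPlo, and pairs below keep that order. In the first sort alone the sums were -0.99, 0.68, 1.08 and -0.59, and in the second -0.19, 0.86 and 0.57 for the first 3 pairs. With per-cell means they were -0.82, 0.96, 0.99 and -0.79. Without Kcnq1, an alternative added after the values were seen, they were -0.37, 0.38, 0.66 and -0.094. Leaving out the cells of the full leukocyte list gave -0.60 and 0.68 for the first 2 pairs, and leaving out those of the narrower list, added later, -0.57 and 0.66, with -0.43 for the last and 5 genes at least 4-fold higher in KO GFPhi than in WT GFPhi cells. TMM scaling gave -0.43 for the first and -0.39 for the last pair. Without the top cell of each group the first, second and last were -0.54, 0.70 and -0.44. With ls primers alone the second was 0.36 and the last -0.053, so the last sum came near 0 both without Kcnq1 and without cells of umi primers.

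Median log2 ratios by date were -1.39 and -0.20 for KO GFPhi over WT GFPhi, 0.64 in the first sort for KO GFPlo over WT GFPlo and 0.20 in the second for KO GFPhi over KO GFPlo. For KO GFPhi over WT GFPhi, 12 genes were lower in the second sort and 13 higher with a minimum of 1 count. For KO GFPlo over WT GFPlo, 8 were higher in the second sort, and a minimum of 1 count gave 23 higher and 15 lower. For WT GFPhi over WT GFPlo, 15 were lower with a minimum of 1 count and 5 with a minimum of 20. For KO GFPhi over KO GFPlo, 6 were higher in the first sort and 16 in the second, and 11 were lower in the second and 29 with a minimum of 1 count. With a minimum of 1 count, genes with very few counts enter as well. The share of all genes past 4-fold was not computed under any alternative, so these counts are not read as a trait of channel genes. Differences in channel genes per cell were -0.0089 in the first sort for KO GFPhi less WT GFPhi, 1.63 and -1.29 by date and -2.32 unthinned for KO GFPlo less WT GFPlo, and 2.00 in the second sort and 3.57 unthinned for KO GFPhi less KO GFPlo. The cause of these shifts was not tested.

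With each pool left out, sums ranged from -0.70 to -0.36 for KO GFPhi over WT GFPhi, from 0.69 to 0.95 for KO GFPlo over WT GFPlo, from 0.63 to 0.88 for WT GFPhi over WT GFPlo and from -0.77 to -0.42 for KO GFPhi over KO GFPlo. In the same order, counts ranged from 7 to 9, 11 to 14, 16 to 21 and 9 to 11 higher and from 18 to 25, 7 to 11, 7 to 10 and 13 to 19 lower. Medians ranged from -1.24 to -0.58, from -0.36 to 0.54, from 0.46 to 0.66 and from -0.58 to -0.16. Differences in genes per cell ranged from -1.71 to -0.80, from -0.59 to 0.71, from 1.78 to 2.74 and from 0.34 to 1.42. No paired analysis was possible because each group was 1 sample and the results come from no test, so values within each date and without each pool are given instead. Depth limits detection: the median channel gene with any count was counted in 12 cells, and a gene with no count may be expressed below the floor.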
